A study of Mus musculus with 20 samples.

Results

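Mouse 1-cell embryos were compared with mouse oocytes across all genes on the array. The arrays were chosen by title, the 4 that name the 1-cell embryo against the 4 that name the oocyte, which makes 8 of the 20 arrays of a series that goes on to the 2-cell, 8-cell and blastocyst stages with 4 arrays each. All 22511 probe sets other than the 64 controls entered the comparison, of 22575 on the Affymetrix MOE430B array, the companion of the MOE430A array, which is not analysed here and carries many of the best-known genes. In both groups total RNA had been amplified in 2 rounds, each by in vitro transcription. The labels give no strain, genotype, treatment, age of the mice or number of cells per sample, and no meiotic stage of the oocytes, so whether the comparison spans maturation of the oocyte as well as fertilization is not known here. Nothing in the labels says that the 4 arrays of a stage came from separate collections of cells. The p-values rest on the scatter within stages, pooled over all 20 arrays of the series. Part or all of that scatter may be technical.

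The full-grown mouse oocyte has stopped transcription and lives on messenger RNA stored during its growth. As it matures and is fertilized, stored transcripts are translated, lengthened or shortened at the poly(A) tail, and in part degraded, while the new embryo's genome is still nearly silent at the 1-cell stage. Fertilization itself is read by the egg as a series of calcium waves, which release it from meiosis and start the mitotic divisions.

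All values are linear intensities as deposited, in which every array has the same trimmed mean. Changes are given as 1-cell minus oocyte on the scale of log2(intensity + 20), which understates the change of dim probe sets, and a probe set was called at an adjusted p under 0.05 by limma. The number of arrays limits the precision, and in such bulk samples fewer cells and less RNA per cell cannot be told apart. The median intensity ran from 67.8 to 80.1 on the 4 oocyte arrays and from 69.1 to 77.8 on the 4 1-cell arrays. Correlation over all probe sets, which are not independent replicates, had a median of 0.917 between oocyte arrays, 0.901 between 1-cell arrays and 0.883 between an oocyte and a 1-cell array. Of 24 oocyte markers 17 were measured, and 16 of them averaged 1000 or more in oocytes and 14 at the 1-cell stage. The summed intensity of 11 cumulus and granulosa cell markers was 1557 to 1988 on the oocyte arrays and 1339 to 1840 on the 1-cell arrays, and that of 16 sperm and spermatid markers 3180 to 3801 and 3075 to 3902; none of the 11 was called, and 2 of the 16, Catsper2 and Tekt4, were called lower. The brightest of the cumulus and granulosa list was Foxl2, at 760.0 in oocytes and 755.9 at the 1-cell stage, with Fst next at 294.1 and 104.8, and the dimmest was Runx1 at 10.4 and 14.8. Among 5 markers of blood and reproductive tract cells, none called, Epcam averaged 301.6 and 189.9, Dcn 101.5 and 106.4, and Ptprc 20.2 and 36.6. The part of other cells in any result was not tested.

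Several control probe sets differed between the stages, although 4 arrays against 4 allow an exact permutation p of 0.0286 at the smallest and none passed after adjustment over the controls (lowest adjusted p = 0.0762). For 18S ribosomal RNA the middle of 3 probe sets averaged 650.2 in oocytes and 37007 at the 1-cell stage, the 18 bacterial hybridization controls were 0.705 log2 units brighter at the 1-cell stage, and the log2 ratio of the 3' to the 5' probe set of beta-actin went from 2.36 to 1.83. That of Gapdh went from 1.99 to 2.12, and the 27 Bacillus controls differed by 0.101. Scaled to the bacterial controls in place of the common mean, the median probe set was lower by 0.68 log2 units at the 1-cell stage, 3206 probe sets were called lower and 8 higher, in place of the 623 and 375 given next, so that 99.8% of calls were lower in place of 62.4%. All 623 kept their call, and of the 375, 8 did and 42 changed sign. Every direction below is therefore relative to the common mean of an array and not an amount per embryo. The part of these control signals in any result was not tested.

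At the 1-cell stage 623 probe sets were lower than in oocytes, or 2.77% of those tested, and 375 were higher, or 1.67%, which makes 998 or 4.43% in either direction. The falls were deeper than the rises: the called falls had a median of -1.36 log2 units and the called rises a median of 0.98, with 482 falls (2.14%) and 172 rises (0.764%) of at least 2-fold. The count of rises rested in part on single arrays, at 241 without oocyte replicate 4 and 235 without 1-cell replicate 2. Of the falls 111 reached 4-fold and 20 reached 8-fold, against 6 and 0 of the rises. The 4 arrays of one stage all lay beyond the 4 of the other in 580 of the 623 falls and 329 of the 375 rises, where the background over all probe sets was 5.22% in the lower and 5.24% in the higher direction. The median over all probe sets was 0.026. The called falls belong to 522 named genes and the called rises to 298, and with 1 probe set per gene, the brightest over the series, 463 of 9607 named genes were lower (4.82%) and 229 higher (2.38%), or 692 in all (7.2%). By at least 2-fold 352 of the named genes were lower (3.66%) and 85 higher (0.885%), and the arrays lay fully apart in 758 downwards (7.89%) and 621 upwards (6.46%).

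Calls were unevenly spread over starting levels. Among 8787 probe sets with a mean under 50 in oocytes 0.114% were called lower and 0.694% higher, and between 50 and 200 the shares were 1.17% and 0.732% of 8885. From 200 to 1000 they were 8.01% and 3.76% of 3985 probe sets, and from 1000 to 5000 they were 21.8% and 12.9% of 743. Above 5000 stood 111 probe sets, of which 25.2% were lower and 2.70% higher. The share of falls thus went up through the 5 classes, while the share of rises peaked in the class from 1000 to 5000. The median standard error was 0.35 log2 units in each class under 200 and 0.23, 0.21 and 0.23 in those above. On the scale used, a probe set under 50 also has little room to fall. The part of precision and of this floor in the shares was not tested.

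The oocyte level enters both the class and the change, so the same counts were made with classes set by the other stage and by both stages. By the mean of both stages, 14.1% were lower and 17.7% higher in the class from 1000 to 5000, and 14.5% and 7.69% in the class of 5000 and over. By the 1-cell level the order turned, with 8.02% lower and 20.5% higher from 1000 to 5000 and 3.15% lower and 20.5% higher at 5000 and over. Whether falls outnumber rises among the most abundant transcripts depended on which stage set the classes.

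**Figure D1:**
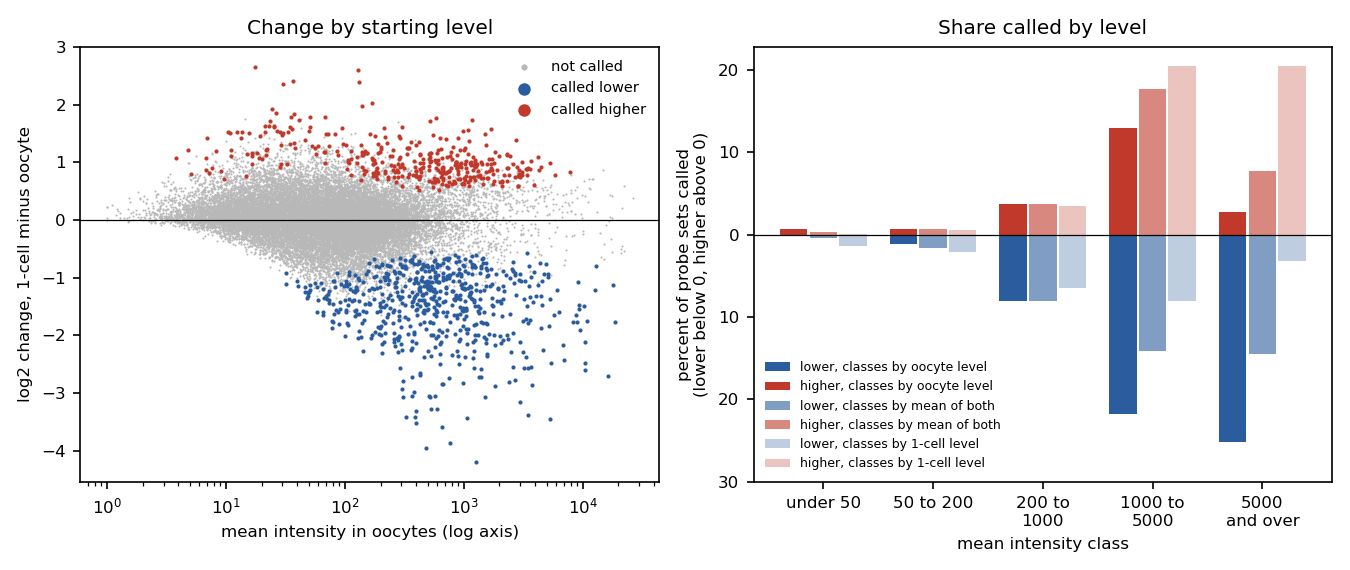
Left, log2 change from oocyte to 1-cell stage (vertical axis) against mean oocyte intensity (horizontal log axis, means under 1 drawn at 1) for each of 22511 probe sets, with called probe sets in blue (lower) and red (higher). Right, the percent of probe sets called lower (drawn downwards) and higher (upwards) in 5 intensity classes, sorted by oocyte level, mean of both stages or 1-cell level; the class of 5000 and over has 25.2% lower when sorted by oocyte level and 3.15% when sorted by 1-cell level.

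Of the 15 brightest named genes of the oocyte, clone names left out, 3 fell and none rose. All probe sets averaging 5000 or more in oocytes, 111 in number, had 25.2% lower and 2.70% higher. The 15 brightest genes include 5 Fbxw genes, Oosp3, Ooep, Padi6, Bub1b and Rgs2, several of which are transcribed almost only in the female germ line. Gtsf1, a small zinc finger protein of the piRNA pathway, read 8520.2, 11629, 11869 and 10184 on the 4 oocyte arrays and 1279, 1570.3, 1867 and 2245 on the 4 1-cell arrays. All 4 oocyte values lay above all 4 1-cell values, a log2 change of -2.60 (SE 0.25, adjusted p = 3.73e-07), and a second Gtsf1 probe set, of a type that can share sequence with other genes, fell by 2.71. Padi6, an arginine deiminase that builds the cytoplasmic lattices of the egg, read 16914, 20592, 19240 and 18515 in oocytes and 3643, 5513, 5494 and 8274 at the 1-cell stage. The stages did not overlap, and the log2 change was -1.77 (adjusted p = 0.000218).

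Transcripts of the same brightness stood beside these with no call. Oosp3, an oocyte-secreted protein, was the brightest of all, at 26313 ± 3606 (SD, n = 4) in oocytes and 34275 ± 4451 at the 1-cell stage, with overlapping arrays and a log2 change of 0.38 (95% interval -0.14 to 0.90, adjusted p = 0.582). Ooep, a scaffold protein of the subcortical maternal complex, averaged 21624 ± 2466 and 15907 ± 2727 (log2 change -0.45, interval -0.92 to 0.02), again with overlap. Bub1b, the spindle checkpoint kinase BubR1, averaged 16916 ± 2178 and 17965 ± 4907, a log2 change of 0.05 (interval -0.47 to 0.57). These intervals span changes of either sign, the Oosp3 change came to 0 under quantile normalization, and the Bub1b change turned negative without oocyte replicate 1 or 1-cell replicate 1 or 2.

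Among 26 genes of maternal effect and of the subcortical complex, 6 were lower and 1 higher (23.1% and 3.8%). Among all 9607 named genes the shares were 4.82% and 2.38%. The list's median log2 change was -0.20, against 0.014 for all named genes. Calls were rarer among dim probe sets, and neither this list nor those below were matched for level. The part of level in any list's share was not tested. Dnmt1, the maintenance DNA methyltransferase, fell from 9008 ± 976.5 to 2606 ± 190.3, with 1-cell values of 2788, 2486, 2746 and 2402, by its single probe set, of the type that can share sequence with other genes. Pabpn1l, an oocyte poly(A) binding protein, read 4451, 3415, 5194 and 5011 in oocytes and 1094, 1807, 1628 and 1968 in 1-cell embryos. It fell by 1.48 log2 units (adjusted p = 7.67e-05), with no overlap, and was at 23.2 ± 9.59 at the 2-cell stage. Patl2, a repressor of stored messenger RNA in oocytes, fell from 2282 ± 302.1 to 1166 ± 101.9 (adjusted p = 0.000397). The 1 rise was that of Rif1, which sets the timing of DNA replication, from 1802, 1748, 2076 and 1750.2 in oocytes to 4716, 4693, 4031 and 3479 at the 1-cell stage, a log2 change of 1.18 (adjusted p = 2.46e-05) without overlap.

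The oocyte F-box genes of the Fbxw family, adaptors of ubiquitin ligases with WD repeats, divided. Of 9 measured, 4 fell (44.4%) and none rose (median -0.55), against 4.82% and 2.38% of all named genes. Fbxw13 read 3959, 6338, 5709 and 5084 in oocytes and 397.3, 469.8, 477.4 and 486.7 at the 1-cell stage, all 4 arrays apart, and went on down to 193.8 ± 94 at the 2-cell stage. Fbxw17 fell from 635.9 ± 74.6 to 137.5 ± 59 (log2 change -2.16, adjusted p = 0.000248) and Fbxw21 from 8867 ± 905.5 to 2878 ± 696.2 (log2 change -1.65, adjusted p = 6.4e-05). Fbxw16 read 14500, 19788, 19490 and 17828 in oocytes and 7577, 8408, 9018 and 7461 at the 1-cell stage, a smaller log2 change of -1.13 (adjusted p = 0.000113), again without overlap.

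Their relatives Fbxw18, Fbxw19, Fbxw22, Fbxw24 and Fbxw27 did not pass. Fbxw19 read 18350, 26028, 22355 and 22584 in oocytes and 14734, 16518, 15243 and 14714 at the 1-cell stage, apart but not called (adjusted p = 0.24). Fbxw22 averaged 17800 ± 3639 and 23546 ± 1649.9, and Fbxw24 21416 ± 3303 and 24938 ± 5706, both with overlapping arrays, and the sign of the Fbxw24 change of 0.20 turned under quantile normalization. Paralogs of one cluster can share probes, so the value of a single Fbxw gene is uncertain to that extent. Under quantile normalization 6 of the 9 were called lower.

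Several Fbxw genes lie near each other on chromosome 9, and the promoters of those called lower and those not called are close copies. They are shown for 2 genes that fell, Fbxw16 and Fbxw21, and 2 that did not pass, Fbxw19 and Fbxw24, as the 250 bases before the start of the gene, from RefSeq on build GRCm38.p6, minus strand, with the motif TTTAAA in capitals. Fbxw16 lies at chr9:109449141-109449390, Fbxw21 at chr9:109162023-109162272, Fbxw19 at chr9:109495855-109496104 and Fbxw24 at chr9:109626060-109626309.
Fbxw16: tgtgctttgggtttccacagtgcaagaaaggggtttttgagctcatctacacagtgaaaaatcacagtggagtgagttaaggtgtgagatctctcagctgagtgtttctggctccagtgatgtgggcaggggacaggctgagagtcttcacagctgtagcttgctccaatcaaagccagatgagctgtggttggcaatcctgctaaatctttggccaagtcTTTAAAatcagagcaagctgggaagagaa
Fbxw21: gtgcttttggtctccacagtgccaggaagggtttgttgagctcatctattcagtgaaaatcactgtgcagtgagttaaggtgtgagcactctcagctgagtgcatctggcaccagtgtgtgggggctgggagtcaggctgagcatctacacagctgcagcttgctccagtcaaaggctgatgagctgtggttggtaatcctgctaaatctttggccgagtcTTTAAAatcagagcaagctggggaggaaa
Fbxw19: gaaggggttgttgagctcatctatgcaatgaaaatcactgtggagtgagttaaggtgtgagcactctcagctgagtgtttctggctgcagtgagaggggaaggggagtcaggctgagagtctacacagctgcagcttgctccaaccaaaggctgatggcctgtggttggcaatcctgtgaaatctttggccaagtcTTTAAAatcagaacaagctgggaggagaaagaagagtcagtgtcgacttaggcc
Fbxw24: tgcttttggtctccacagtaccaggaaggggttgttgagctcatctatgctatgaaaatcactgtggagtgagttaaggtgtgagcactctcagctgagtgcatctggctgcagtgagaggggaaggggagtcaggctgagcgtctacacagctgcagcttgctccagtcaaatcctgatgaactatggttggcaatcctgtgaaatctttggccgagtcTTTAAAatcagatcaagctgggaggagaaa
The motif, which reads the same on both strands, begins 29 bases before the start in Fbxw16 and Fbxw21, 30 in Fbxw24 and 54 in Fbxw19, and is in 12.1% of all 32851 promoter windows of this length. Fbxw18, which did not pass either, has the motif 10 bases before the start. Over the aligned bases the 10 pairs of these 5 promoters share 86.6% (Fbxw16 and Fbxw24) to 94.4% (Fbxw18 and Fbxw21), in each case a gene that fell and one that did not pass. A match is a description of letters, and these windows were compared by no test. The split rests on the call alone, since Fbxw18 and Fbxw19 also had all oocyte arrays above all 1-cell arrays. Fbxw13 had no promoter window here.

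The Nlrp and the Oog and Pramel families held no calls, against 7.2% of all named genes called in either direction. With so few genes, no call is near that share and does not show unchanged levels. None of 10 Nlrp genes was called, where Nlrp14 averaged 14993 ± 2164 in oocytes and 11347 ± 2488 at the 1-cell stage and Nlrp4f 11536 ± 2470.5 and 16605 ± 1769 (median of the list 0.11). None of 9 Oog and Pramel genes was called (median 0.36), although Oog3 read 11812, 14336, 12972 and 10036 in oocytes and 18934, 24673, 18771 and 18514 at the 1-cell stage, apart on all arrays (adjusted p = 0.306). Its standard error of 0.32 draws on the spread at all stages, which at the 2-cell stage was 12037 ± 6390. This Oog3 probe set is of the type that can share sequence with other genes. Obox5, a homeobox gene of oocytes, was also apart without a call, at 12032, 15627, 16422 and 14880 in oocytes and 31712, 30876, 26106 and 20410 at the 1-cell stage (log2 change 0.88, adjusted p = 0.114). Of 37 homeobox genes 1 fell and 1 rose (2.7% each), against 4.82% and 2.38% of all named genes. The fall was that of Meis2, from 9559 ± 607.4 to 2612 ± 798.6 (log2 change -1.91, adjusted p = 4.22e-06), and the rise that of Pbx3, from 170.6 to 393.9 (log2 change 1.08, adjusted p = 0.0281).

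**Figure D2:**
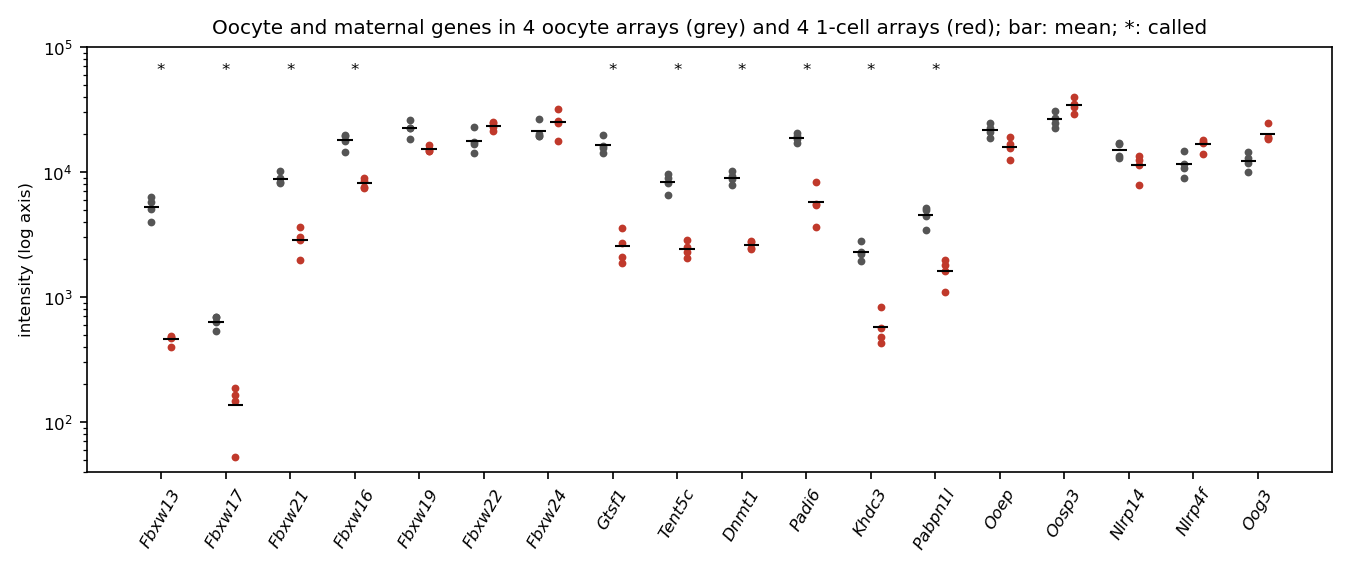
Intensity (log axis) of 18 oocyte and maternal genes on each of the 4 oocyte arrays (grey) and 4 1-cell arrays (red), with the mean as a bar and an asterisk over genes that were called. Fbxw13 drops from a mean of 5272 to 457.8, whereas Fbxw24 and Oosp3 overlap between stages.

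Genes that handle messenger RNA at its tail and its decay changed in both directions. Of 97 measured, 12 were lower and 5 higher (12.4% and 5.20%; median 0.00). Tent5c, a poly(A) polymerase, read 6594, 8229, 8985 and 9694 in oocytes and 2041, 2310.2, 2514 and 2834 in 1-cell embryos. The arrays did not overlap, and the log2 change was -1.78 (adjusted p = 6.19e-07). Pum3, an RNA-binding protein of the nucleolus, fell from 3164 ± 401.6 to 651 ± 232.4 (log2 change -2.29), and Rnf17, a tudor protein of germ cells, from 1346 ± 124.6 to 435.4 ± 123.7 (-1.62). Of 23 RNA helicases 4 fell (17.4%) and none rose. Against these lists stand 4.82% lower and 2.38% higher among all named genes.

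Ribosome biogenesis and RNA polymerase I held 9 falls and 5 rises among 59 genes (15.3% and 8.5%, median -0.09). All named genes, against which the lists here are set, had 4.82% lower and 2.38% higher. Krr1, a factor of the small ribosomal subunit, read 1622, 1572, 1492 and 1633 in oocytes and 348.6, 253.7, 285.5 and 323.7 at the 1-cell stage, tight in both groups, a log2 change of -2.32 (SE 0.14, adjusted p = 5.76e-10). Fcf1, which acts in the same processing steps, fell from 4679 ± 854.5 to 1068 ± 515.7, and Polr1d, a subunit shared by RNA polymerases I and III, from 6839 ± 508.6 to 1631 ± 751. Rpl22, 1 of 4 cytosolic ribosomal protein genes measured, read 5198, 4743, 4910.2 and 6872 in oocytes and 815.3, 878.6, 1206 and 943.9 at the 1-cell stage, a log2 change of -2.47 (adjusted p = 6.34e-08) in a class of abundant transcripts. The Krr1, Polr1d and Rpl22 probe sets are of types that can share sequence with other genes. Splicing factors were even, with 4 lower and 4 higher of 89 (4.50% each): Lsm6 fell from 1631 to 414.9 and Sf3b5 from 3501 ± 290.2 to 1008 ± 148, while Snrpf, a core spliceosome protein, rose from 484.7, 457.7, 468.6 and 689.3 in oocytes to 1058, 1376, 1438 and 773.4 at the 1-cell stage (log2 change 1.09) and Srrm1 by 0.99.

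Genes of the chromosome cycle had deep falls. Of 32 DNA replication genes 6 fell and 1 rose (18.8% and 3.10%, median -0.12), against 4.82% and 2.38% of all named genes. Gins2, a subunit of the replicative helicase, read 2208, 2190.2, 2666 and 2325 in oocytes and 132.8, 631, 807.1 and 1232 at the 1-cell stage. Its groups were apart, with a wide spread among the 1-cell arrays, and the log2 change was -2.06 (adjusted p = 0.00121). Mcm5, another helicase subunit, fell from 3289 ± 492.8 to 1552 ± 96, and Rfc2, of the clamp loader, from 433.2 ± 46 to 54.3 ± 22.1, both by probe sets that can share sequence. The 1 rise was that of Rrm2b, a ribonucleotide reductase subunit, from 395.8, 276.5, 329.5 and 351.7 in oocytes to 668.8, 1045, 857.3 and 787.6 at the 1-cell stage (log2 change 1.25, adjusted p = 0.000241). Among 60 DNA repair genes 7 fell and 4 rose (11.7% and 6.7%). Rad54b, a recombination motor protein, went from 382.6, 351.4, 380 and 357.8 in oocytes to 62.3, 46.2, 42.7 and 15.5 at the 1-cell stage (log2 change -2.72).

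Calls among kinetochore genes were mostly falls while the list's median was above 0: of 26, 5 were lower and 2 higher (19.2% and 7.70%; median 0.16). Spc24, of the Ndc80 complex that binds microtubules, read 1002, 851.4, 999 and 1078 in oocytes and 145.7, 106, 178 and 73.4 in 1-cell embryos. That is a log2 change of -2.83 (adjusted p = 2.84e-06) without overlap. The centromere proteins Cenpp, Cenpl and Cenps fell, with log2 changes of -2.72, -1.59 and -0.94, and so did Ska3, which holds kinetochores to microtubules, at -1.57. Of 55 cyclins, kinases and inhibitors of the cell cycle 5 fell (9.1%) and none rose. Of 24 genes of meiotic recombination and cohesin 1 fell and 2 rose (4.2% and 8.3%). Over all named genes 4.82% were lower and 2.38% higher.

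Mitochondrial genes were in 3 lists, set here against 4.82% lower and 2.38% higher among all named genes. Of 27 mitochondrial ribosomal proteins 5 were lower and 1 higher (18.5% and 3.70%; median -0.08), and of 48 respiratory chain and ATP synthase genes 7 and 2 (14.6% and 4.20%; median -0.10). The third list, of 46 genes of mitochondrial import, dynamics and metabolism, had 3 lower and 1 higher (6.5% and 2.20%; median 0.16), and 1 and 0 under quantile normalization. Mrpl43, of the large mitochondrial subunit, read 385.9, 392.2, 352.7 and 347 in oocytes and 17.4, 37.7, 22.4 and 32.6 at the 1-cell stage. The arrays of the stages lay far apart, and the log2 change was -3.05 (SE 0.19, adjusted p = 5.76e-10). Cmc1, an assembly factor of cytochrome oxidase, fell from 1061 ± 36.2 to 228 ± 57.1, and Mtln, a small peptide of the inner membrane, from 671.3 ± 50.2 to 87.5 ± 50.3. Lyrm4, which serves the making of iron-sulfur clusters, went the other way, from 605.4, 595, 678.5 and 645.5 in oocytes to 1641, 2282, 1844 and 1248 at the 1-cell stage (log2 change 1.42, adjusted p = 1.4e-05). None of 30 genes of glycolysis and sugar metabolism was called (median 0.05).

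Lists of protein folding, redox and turnover differed in their share of falls, against 4.82% lower and 2.38% higher among all named genes. Of 65 chaperones 7 fell and none rose (10.8%; median -0.05), of 30 redox and glutathione genes 5 and 0 (16.7%; median -0.11), of 16 proteasome genes 3 and 0 (18.8%; median -0.15), and of 80 ubiquitin conjugating enzymes and deubiquitinases 9 and 3 (11.2% and 3.8%; median 0.05). Of 130 RING and HECT ubiquitin ligases 5 fell and 4 rose (3.8% and 3.1%), a share of falls below that of all named genes. Pfdn6, a prefoldin subunit that hands actin and tubulin to the folding machine, read 1630.5, 1824, 2108 and 1783 in oocytes and 176.5, 223.2, 261 and 282 at the 1-cell stage, a log2 change of -2.87 (adjusted p = 6.02e-10) with wide separation. Glrx5, a mitochondrial glutaredoxin, fell from 9352 ± 1197 to 3263 ± 867.4, and Sod1, the cytosolic superoxide dismutase, from 9229 ± 1734 to 4437 ± 1125 (adjusted p = 0.00472). Ube2g1, a ubiquitin conjugating enzyme, read 11971, 12935, 14897 and 11509 in oocytes and 3809, 5198, 6115 and 7395 at the 1-cell stage, while its other probe set rose from 1464 to 2436 (log2 change 0.73, adjusted p = 0.0148). Lamtor5, of the complex that anchors mTORC1 to the lysosome, fell from 5337 ± 880.9 to 2083 ± 468.6. Rragc, a GTPase that binds that lysosomal complex, rose instead, from 6568, 6920.2, 9046 and 8938 in oocytes to 16762, 16447, 13932 and 9553 at the 1-cell stage (log2 change 0.83, adjusted p = 0.00809).

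The list with the highest share of rises was egg activation and calcium. Of 37 genes 5 rose and 1 fell (13.5% and 2.70%, median 0.14), against 2.38% and 4.82% of all named genes. Mcur1, a regulator of the mitochondrial calcium uniporter, read 923.7, 901.3, 957 and 952.4 in oocytes and 2486, 2577, 2239.9 and 1611 at the 1-cell stage, a rise of 1.22 log2 units (adjusted p = 0.000369) without overlap. The uniporter gene Mcu rose from 1034 ± 130.6 to 2059 ± 367 by its brighter probe set (log2 change 0.97, adjusted p = 0.0116). The dimmer averaged 30.2 in oocytes, near the bottom of the scale, and 230.4 at the 1-cell stage, so the size of its change is not given. The calcium pump of the cell membrane Atp2b1 went from 741.1, 568.2, 1022 and 807.2 in oocytes to 1765, 1414, 1393 and 1267 at the 1-cell stage (adjusted p = 0.0114), and the chaperone Canx of the endoplasmic reticulum from 2318 ± 379.3 to 3752 ± 839 (adjusted p = 0.0335), a change whose sign turned when scaled to the bacterial controls. The other probe sets of Atp2b1 were not called. The 1 fall in the list was Stim2, a calcium sensor of the endoplasmic reticulum. Under quantile normalization 4 of the 37 were higher and 0 lower.

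Among regulators of transcription, 119 DNA-binding factors of the bZIP, bHLH, nuclear receptor, forkhead, ETS, Klf and other families held 6 rises and 1 fall (5.0% and 0.8%; median 0.06), but 3 rises and 1 fall under quantile normalization. Of 245 Zfp zinc finger genes 2 rose and 7 fell (0.8% and 2.9%; median -0.03), and of 66 general transcription and Mediator genes 4 rose and 5 fell (6.1% and 7.6%; median 0.05). Among all named genes 2.38% rose and 4.82% fell, and the lists were not tested against each other. Elk4, an ETS factor, read 331.9, 398.1, 622.2 and 480.1 in oocytes and 862.4, 1075, 894.7 and 995.1 at the 1-cell stage, and Nr2e1, an orphan nuclear receptor, 321.6, 476.6, 267.3 and 320.7 in oocytes and 886.7, 874.8, 780.8 and 796.9 at the 1-cell stage. Both were apart on all arrays and rose by 1.06 and 1.25 log2 units (adjusted p = 0.00186 and 0.00216). Of 54 remodelers and histone chaperones 3 rose and none fell: the partners Ubn1 and Ubn2, which work with the histone H3.3 chaperone HIRA, rose from 1560.2 ± 334.8 to 3082 ± 569.1 and from 507 ± 77.1 to 1162 ± 260, and the third was Baz1a. Of 123 histone modifiers 9 fell and 2 rose (7.30% and 1.60%; median 0.04), with Kat8, an acetyltransferase of histone H4, at 2609.7, 2897, 3259.5 and 3146 in oocytes and 415.4, 634.8, 713.9 and 1077 at the 1-cell stage (log2 change -2.11, adjusted p = 3.1e-06). The zinc finger gene Zfp839 fell from 1573 ± 119 to 441.3 ± 88.4, and Leo1, of the PAF complex that travels with RNA polymerase II, from 758 ± 51.9 to 104.7 ± 49.4.

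Signalling and membrane lists ranged from above to below the share of all named genes (4.82% lower and 2.38% higher). Of 156 growth factor and kinase genes 8 were lower and 9 higher (5.10% and 5.80%; 7 and 6 under quantile normalization), with Abl2, a tyrosine kinase, rising from 1683, 1576, 1689 and 1604 in oocytes to 4113, 3435, 2652 and 3726 at the 1-cell stage (log2 change 1.06, adjusted p = 0.000176). Of 217 vesicle traffic genes 12 fell and 7 rose (5.50% and 3.20%), near the share of all named genes, and of 53 autophagy and lysosome genes 4 fell and 1 rose (7.50% and 1.90%). Exoc3, of the exocyst that tethers vesicles, fell from 1027 ± 159.2 to 182.1 ± 41.1. Calls were below the share of all named genes in 177 solute carriers (1.70% lower and 1.10% higher), 175 channels and pumps (2.30% and 1.10%) and 158 genes of G protein signalling (1.90% and 1.30%). Of probe sets under 50 in oocytes 0.114% were lower and 0.694% higher, against 21.8% and 12.9% from 1000 to 5000. These lists were not matched for level, and whether level alone gives such shares was not tested.

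**Figure D3:**
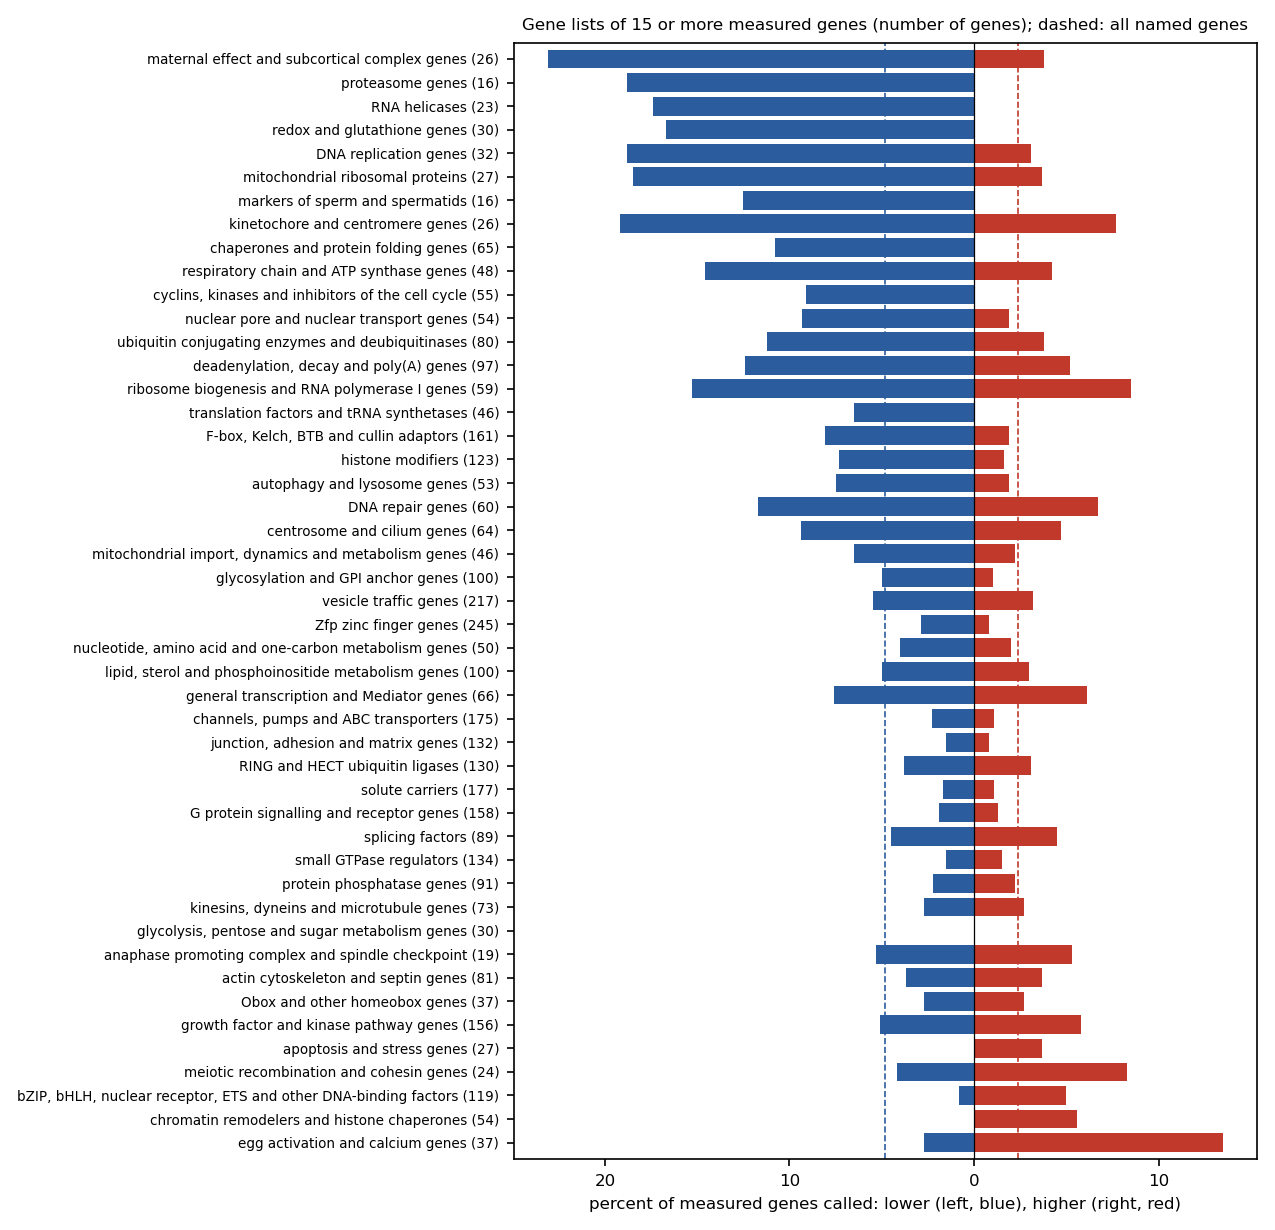
Percent of measured genes called lower (blue, to the left) and higher (red, to the right) in each list of 15 or more genes, with the number of genes in brackets and dashed lines at the shares over all 9607 named genes, 4.82% lower and 2.38% higher. Maternal effect genes have the longest blue bar of the lists drawn, and egg activation and calcium genes the longest red bar. The lists are not matched for level.

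Further large rises were spread over genes of different kinds. Nsrp1, a splicing regulator, read 1144, 1506, 1115 and 901.7 in oocytes and 3185, 5047, 3739 and 3698 at the 1-cell stage, a rise of 1.73 log2 units (adjusted p = 2.98e-06), while its other probe set fell from 707 ± 161.6 to 283.2 ± 77.7 (log2 change -1.27, adjusted p = 0.000333). Kbtbd8, a ubiquitin ligase adaptor, rose from 488.2, 583.6, 532.9 and 485.7 in oocytes to 1385, 1577, 1858 and 2373 at the 1-cell stage (log2 change 1.72), whereas its brighter probe set was not called. Ceacam20, a cell surface protein of the immunoglobulin family, went from 1664, 1823, 1662 and 1679 in oocytes to 4909, 6218, 5486 and 4070.3 at the 1-cell stage (log2 change 1.57, adjusted p = 6.39e-06). All 3 were apart on every array. Tmcc3, a membrane protein, rose from 2778 ± 568.8 to 7411 ± 2198, Trim61 by both of its bright probe sets (1.10 and 1.30 log2 units), and Hirip3, a histone chaperone partner, from 5882 ± 419.4 to 10158 ± 1054 in the class of 5000 and over.

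At later stages the called probe sets parted. The median log2 level of the 623 that were lower went from 9.13 in oocytes to 7.80 at the 1-cell stage and stood at 8.29, 8.27 and 8.60 at the 2-cell, 8-cell and blastocyst stages. That of the 375 that were higher went from 8.83 to 9.82, then to 8.94, 8.14 and 8.12. Since a called fall favours low 1-cell values and a called rise high ones, some return at the next stage comes with the choice, and no test was made. Of the 623, 186 (29.9%) were at least 2-fold above their 1-cell mean at the 2-cell stage, against 3.40% of 4114 probe sets that were not called and averaged 200 or more over both stages. At or above the oocyte mean were 130 (20.9%) at the 2-cell stage and 225 (36.1%) in blastocysts, against 39.5% and 36.5% of those not called.

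Psmc3ip, which helps strand invasion in meiotic recombination, read 1196, 956.3, 1189 and 1784 in oocytes, 43.8, 18.5, 82 and 71 at the 1-cell stage and 1649 ± 379.3 at the 2-cell stage, so the 1-cell arrays were below both neighbouring stages. Pfdn6 returned to 2135 ± 432.8 at the 2-cell stage and reached 5195 ± 641.4 at the 8-cell stage, Rpl22 went through 5354 ± 813.3 to 36517 ± 6837, and Mrpl43 through 611.5 ± 128.1 to 1737 ± 410.4 in blastocysts. A smaller set, 72 of the 623 (11.6%), stayed under 25% of its oocyte mean at all 3 later stages, against 2.04% of those not called. Fbxw13, at 15.6 ± 6.53 by the 8-cell stage, Tent5c, at 24.2 ± 9.93 in blastocysts, and Gtsf1 are examples. Of the 375 rises 139 (37.1%) were under 25% of their 1-cell mean at the 8-cell stage, against 16.7% of those not called. Trim61 was at 47.4 ± 40.6 at the 8-cell stage and Ceacam20 at 198.7 ± 35.8. Part of both differences comes with the choice, since called falls favour high oocyte values and called rises high 1-cell values.

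**Figure D4:**
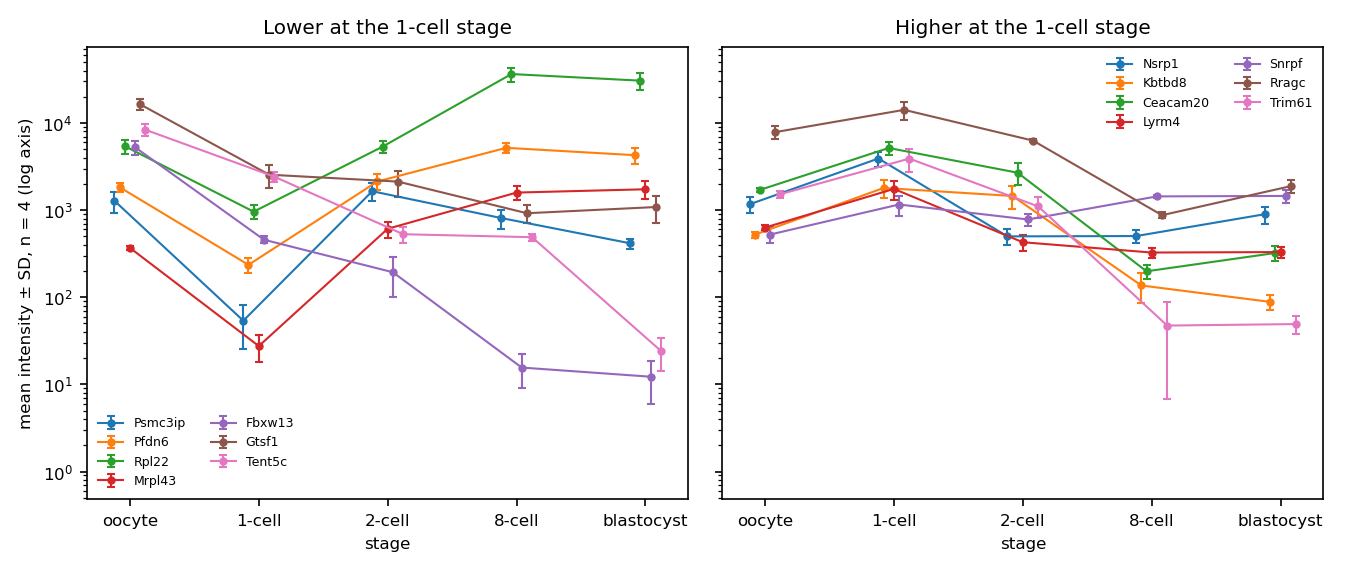
Mean intensity with SD over 4 arrays (log axis) at the 5 stages for 7 genes lower (left) and 7 genes higher (right) at the 1-cell stage. Psmc3ip, Pfdn6, Rpl22 and Mrpl43 are back up at the 2-cell stage, Fbxw13 and Tent5c go on falling, and Trim61, Kbtbd8 and Ceacam20 drop by the 8-cell stage.

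The 4 1-cell arrays did not stand at the same distance from the oocytes. Among the 623 falls, replicate 4 had the highest of the 4 1-cell values in 293 and replicate 1 the lowest in 316, or 50.7%, against 28.5% and 30.9%, in that order, of the probe sets that were not called and averaged 200 or more. Among the 375 rises, replicate 4 had the lowest 1-cell value in 49.6%, against 33.9%. Without replicate 4 of the 1-cell stage 629 probe sets were lower and 386 higher, without replicate 1 they were 495 and 259, and without replicate 2 the higher count was 235. Padi6, Gins2 and Fcf1, picked after their values were seen, have the same order, with replicate 1 lowest and replicate 4 highest.

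Several genes had probe sets that went opposite ways. Of 3280 genes with more than 1 probe set 424 had at least 1 called; in 16 all were lower and in 6 all higher, in 220 some were lower and none higher, and in 169 some were higher and none lower. In 13 genes at least 1 probe set was lower and at least 1 higher: Ago3, Alg10b, Bbs4, Cdca2, Dkc1, Gtpbp10, Nsrp1, Prdm10, Socs7, Spry4, Sulf2, Terb1 and Ube2g1, a set found by its values. Probe sets of a gene read different stretches of its transcripts, and a level is not comparable between them. Of 235 called probe sets picked by the naming rules, 110 had another probe set of the same gene. In 27 of the 110 another was called the same way, and in 7 another was called the opposite way. The rest had no second call, among them Atp2b1, Krr1, Exoc3, Cmc1 and Fbxw16.

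Alg10b, a glucosyltransferase of protein glycosylation, read 3474, 4048, 4305 and 2713 in oocytes and 1269, 2039.8, 1266 and 1207 at the 1-cell stage by one probe set, and 935.4, 1071, 1307 and 845.2 in oocytes and 2045, 2234, 2384 and 1834 at the 1-cell stage by the other. The first fell by 1.33 log2 units (adjusted p = 0.000119) and the second rose by 1.03 (adjusted p = 0.000181), neither with overlap. Socs7, a suppressor of cytokine signalling, rose from 3442 ± 701.6 to 6399 ± 531.2 by one probe set and fell from 4448 ± 908.1 to 1748 ± 216.9 by the other (adjusted p = 0.00317 and 0.000186). Terb1, which ties telomeres to the nuclear envelope in meiosis, read 519.7, 658.1, 641.4 and 681 in oocytes and 112.1, 110.7, 161.9 and 252.3 at the 1-cell stage by the probe set that fell and 378.1, 360.4, 359.9 and 345 in oocytes and 1186, 992.5, 872.2 and 782.2 at the 1-cell stage by the one that rose. Cdca2, a mitotic phosphatase subunit, rose by 1.36 and fell by 0.68 log2 units. In Alg10b, Socs7, Terb1, Cdca2 and Nsrp1 both called probe sets were of the plain type, and in each the arrays of the stages lay fully apart in both directions.

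**Figure D5:**
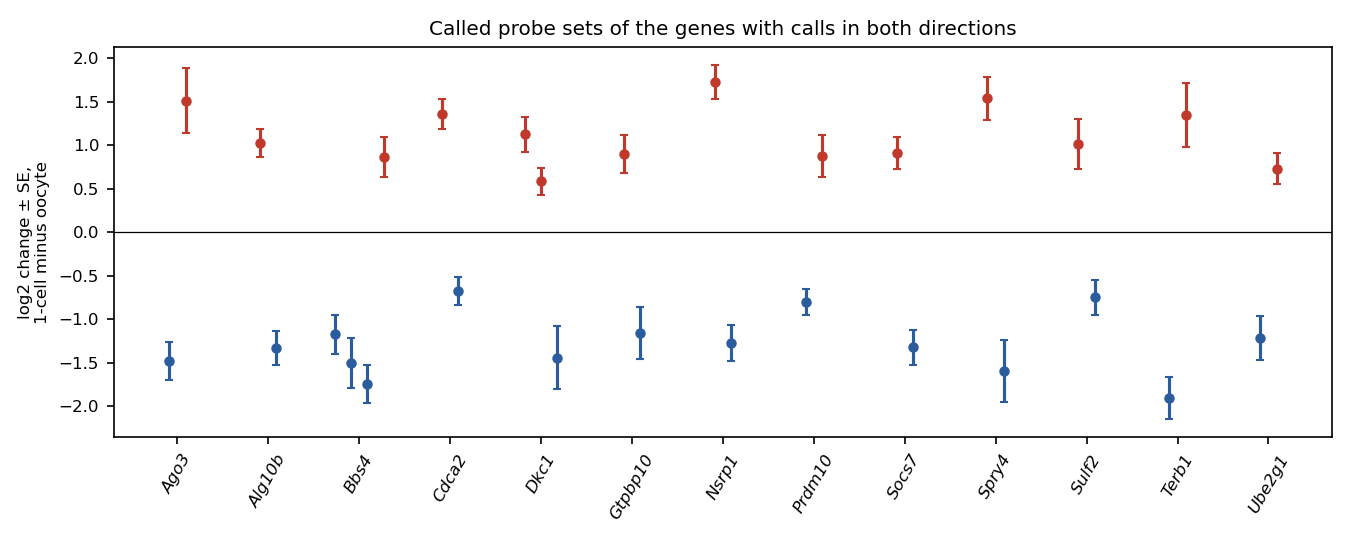
Log2 change with its standard error, 1-cell minus oocyte, of each called probe set of the 13 genes that have calls in both directions, red for higher and blue for lower. Bbs4 has 3 probe sets lower and 1 higher, and Dkc1 has 2 higher and 1 lower.

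Genes that fell had a shorter median span than genes that rose. The fallen genes were close to all named genes and shorter than uncalled genes averaging 200 or more over both stages. The fallen genes themselves had no such limit on level, so that comparison is not matched for level. The median span of the gene on the genome, by the RefSeq table of GRCm38.p6, was 24.4 kb for the 463 named genes that fell, 42.6 kb for the 229 that rose, 27.1 kb for all named genes and 35.5 kb for those not called that averaged 200 or more over both stages. Spans under 10 kb made up 24.8% of the genes that fell, 15.3% of those that rose and 24.1% of all not called. The median was 17.2 kb for the 84 named genes that fell by at least 4-fold. Among genes averaging 200 or more, 15.3% fell and 4.22% rose of 569 genes under 10 kb, and 6.64% fell and 7.39% rose of 663 genes of 100 kb and over. Promoters held a median of 20 CpG in genes that fell, 24 in genes that rose and 20 in those not called at that level, out of 300 bases around the start. The word TATAAA on either strand was in 8.30% of the promoters of genes that fell and 4.70% of those that rose, against 9.60% of those not called at that level. These are descriptions, with no test.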

How the data were processed

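The authors deposited 1 table of linear intensity values for 20 MOE430B arrays of mouse preimplantation stages, 4 arrays a stage. The sources used here do not give scanner software, summarization or scaling target. The values show 1 common trimmed mean over the arrays and were kept as they are. Per the labels, total RNA was amplified in 2 rounds. Probe sets were named by the platform annotation, with 14661 of 22511 carrying 1 symbol, 245 several and 7605 none. Probe sets of the x_at and s_at types can share sequence with other genes. Beyond those marked above, they include the ones given for Bub1b, Meis2, Pum3, Lsm6, Sf3b5, Srrm1, Gins2, Cmc1, Sod1, Kat8, Canx and Psmc3ip.

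Stage means were fitted to log2(intensity + 20) over all 20 arrays with limma 3.58.1 (R 4.3.3), using lmFit and eBayes with an intensity trend, with no filter on dim probe sets. The 1-cell minus oocyte contrast was adjusted by Benjamini-Hochberg over 22511 probe sets and called under 0.05. On simulated data of 22511 probe sets, 61% of changes of 1 log2 unit and 95% of changes of 2 were recovered. These changes were planted only in probe sets with an average level above 200 over both stages. Recovery among dimmer probe sets was not measured. Control probe sets were compared by exact permutation tests. Promoters were aligned with Biopython 1.88.

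The members and the 55 gene lists were chosen with earlier results of these data known, and 380 genes that matched a list's prefix by chance were taken out after values were seen. For each gene of a list the probe set with the highest mean over 20 arrays was used. The genes named were the 24 largest falls and rises without overlap, the 5 largest in each direction per abundance class from 200 up, up to 5 called members and the 2 brightest of each list, and the 15 brightest of the oocyte, leaving out clone names and, for the largest changes, x_at probe sets. Other probe sets of a named gene, marker genes and genes with opposite probe sets were added after values were seen. Alternatives covered the pseudocount, dim probe set filters, scaling, the arrays fitted, array weights, the replicate block, x_at and s_at probe sets, and each array left out in turn.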

Additional observations from a re-analysis of the deposited data

Results flagged for a closer look

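Among 210 groups of 4 arrays examined, 9 held an array that stood apart from the other 3 by Dixon's criterion, where chance alone gives about 1 in 20 groups. In oocytes, Fbxw24 read 26341 on replicate 4 against 19460 to 20280 on the others, and Snrpf read 689.3 on replicate 4 against 457.7 to 484.7. Rif1 read 2076 on oocyte replicate 3 against at most 1802.4, and Hirip3 6502.4 on the same replicate against at most 5736. Fcf1 read 3406.2 on oocyte replicate 1, below the 4987.3 to 5230.3 of the others, and Ceacam20 read 1822.8 on oocyte replicate 2 against at most 1678.7. At the 1-cell stage, replicate 2 was the high array for Oog3 (24673 against at most 18934), for the Alg10b probe set that fell (2039.8 against at most 1269) and for Hirip3 (11738 against at most 9685.6).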

How the results depend on the processing

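The count of lower probe sets stayed within 1.5 times of 623 under all alternatives but centring on bacterial controls, which gave 3206 lower and 8 higher, and 2905 and 8 of at least 2-fold. Array weights gave 573 higher, and a pseudocount of 80 left 86 rises of at least 2-fold. Leaving out 1 array gave 481 to 629 lower and 235 to 386 higher, with 409 to 519 and 138 to 213 of at least 2-fold. Of the 95 called probe sets with values held for naming, 87 were called in all 8 such fits, and 86 under every alternative but bacterial centring. With the replicate number as a block, 530 were lower and 331 higher, 432 and 144 of them by at least 2-fold. That fit used the 8 oocyte and 1-cell arrays alone. Without the block the same 8 arrays gave 608 lower and 446 higher, 468 and 169 of them by at least 2-fold. Same-numbered arrays correlated at 0.036, -0.062, 0.068 and -0.028 in their deviations from the stage means. The labels do not say whether such arrays share more than the number.

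With bacterial centring the shares lower, from the dimmest to the brightest oocyte class, were 6.32%, 13.5%, 28.2%, 37.6% and 40.5%, and the shares higher 0.0341%, 0.0338%, 0.0251%, 0.135% and 0.0%. With classes by the mean of both stages, 0.405%, 1.62%, 14.1% and 14.5% were lower under 50, from 50 to 200, from 1000 to 5000 and from 5000, and 0.301% and 17.7% higher under 50 and from 1000 to 5000. With classes by the 1-cell level, 1.37%, 2.08%, 6.46%, 8.02% and 3.15% were lower, and 0.127% higher under 50 and 20.5% in each class from 1000. Quantile normalization gave 6.30% lower from 200 to 1000, and 0.484%, 2.61% and 7.67% higher in the 3 classes from 50 to 5000, but 6.31% higher from 5000, above the 2.70% of the deposited scaling.

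Signs turned for uncalled genes: Fbxw24 at -0.10 by quantile normalization and -0.50 by bacterial centring, Oosp3 at -0.0 and -0.32, and by bacterial centring Fbxw22 at -0.28, Bub1b at -0.65 and Nlrp4f at -0.16. Bub1b was at -0.003 without oocyte replicate 1, -0.014 without 1-cell replicate 1 and -0.087 without 1-cell replicate 2, with 0.246 without 1-cell replicate 4 as its highest. The called rise of Canx was at -0.024 by bacterial centring. The cause of these shifts was not tested. No detection calls were used, and 4 arrays a stage limit the precision.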
